A study of Mus musculus with 36 samples.

Results

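The 77 genes described here encode proteins of the mitochondrial ribosome. They are the rows of a table of 11337 genes whose symbols consist of Mrpl or Mrps, a number and at most 1 further letter. GENCODE M21 lists 78 protein-coding mouse genes with such symbols, and the remaining gene, Mrpl53, was not analysed here. By subunit, 26 of the proteins sit in the small and 50 in the large subunit, with Mrps18a and Mrps30 counted in the large subunit, where structures place them despite their names. The last gene, Mrps36, is now known as a component of the 2-oxoglutarate dehydrogenase complex rather than a ribosomal protein, and it was kept because its symbol matches.

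Mitochondrial ribosomes translate the few proteins that mitochondrial DNA encodes, all of them membrane subunits of the respiratory chain and ATP synthase. Their rRNAs come from mitochondrial DNA, whereas every protein is encoded in the nucleus, made in the cytosol and imported, so both genomes have to supply parts of 1 machine. Many of the proteins have bacterial homologues and others exist in mitochondria alone. Muscle stem cells (satellite cells) rest beside the muscle fibre with few mitochondria and build up mitochondrial mass when they leave quiescence.

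Expression was measured by RNA sequencing of muscle stem cells sorted from the hindlimbs of 36 male mice, labelled C56BL/6, at 1 library per mouse. In the wheel cohort, mice lived for 3 weeks with a running wheel that was locked or free, and cells negative for CD31, CD45 and Sca1 and positive for VCAM were sorted: 6 young locked, 3 young free, 7 old locked and 5 old free libraries, where young is 3 months and old is 18 months. In the Ccnd1 cohort every mouse, controls included, carried Pax7_CreERT2 and R26R_YFP and received tamoxifen, and sorting took YFP-positive cells after another 6 weeks. Ccnd1, which encodes the cell cycle protein cyclin D1, was +/+ in 3 young WT and 3 old WT mice, +/flox in 4 young HET mice and flox/flox in 5 young KO mice. The floxed allele is recombined only in cells that have expressed Cre from the Pax7 gene.

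Values are RPKM, reads per kb of exon and per unit of sequenced reads, and the sums over all genes ranged from 273837 to 350969 per library. The depth of single libraries is unknown, and no counting interval can be given. The deposited log2 values lacked 6 directions of variation beside a model that merges each cohort's controls with those of the other. Young WT and young locked libraries thus differed at an unadjusted p under 0.05 in 0 genes (limma), as did old WT and old locked libraries. The 2 cohorts are therefore not independent measures of age, and limma's residual degrees of freedom do not account for the removed directions. All 10 satellite cell markers were found, with a summed level of 2240 to 3694 RPKM over all libraries. This sum mainly follows Sdc4, which alone averaged 1750 RPKM, whereas Pax7 averaged 20.4. The 4 keratin genes Krt5, Krt14, Krt1 and Krt10 summed to 52.7 to 145 RPKM in the HET libraries and to at most 10.6 in any other library.

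The genes lie on 17 chromosomes. Windows of 250 bases before and 50 bases after the start were found in RefSeq (GRCm38.p6, the mm10 build) for 68 of the 77 genes. The windows below are cut to 150 bases before and 30 bases after the start and show the promoters of 5 of the 8 genes with the lowest p-values for age. Capitals mark GCGCA and GCGC with any 1 base between them, bound by nuclear respiratory factor 1 (NRF1), and CCGGAAG, bound by ETS factors such as GABPA, on either strand. Both factors are known regulators of nuclear genes for mitochondrial proteins. Of the 8 genes 4 held a match to these letters, all shown here, and 4 held none (Mrps2, Mrps7, Mrpl41 and Mrps30), of which Mrps2 is shown.
Mrpl12: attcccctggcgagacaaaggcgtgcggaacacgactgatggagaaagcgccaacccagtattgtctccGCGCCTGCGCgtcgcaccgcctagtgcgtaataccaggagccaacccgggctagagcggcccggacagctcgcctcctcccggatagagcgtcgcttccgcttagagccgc
Mrpl17: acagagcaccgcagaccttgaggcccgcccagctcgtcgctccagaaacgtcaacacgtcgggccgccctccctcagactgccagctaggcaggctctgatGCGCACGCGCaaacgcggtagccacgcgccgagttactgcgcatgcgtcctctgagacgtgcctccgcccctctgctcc
Mrpl43: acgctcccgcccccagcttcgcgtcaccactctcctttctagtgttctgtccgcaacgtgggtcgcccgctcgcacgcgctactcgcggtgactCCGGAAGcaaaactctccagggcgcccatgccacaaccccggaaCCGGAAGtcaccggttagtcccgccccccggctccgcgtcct
Mrps26: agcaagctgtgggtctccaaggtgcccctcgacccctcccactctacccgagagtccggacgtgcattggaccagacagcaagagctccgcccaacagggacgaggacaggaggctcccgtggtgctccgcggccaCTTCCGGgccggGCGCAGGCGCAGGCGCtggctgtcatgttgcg
Mrps2: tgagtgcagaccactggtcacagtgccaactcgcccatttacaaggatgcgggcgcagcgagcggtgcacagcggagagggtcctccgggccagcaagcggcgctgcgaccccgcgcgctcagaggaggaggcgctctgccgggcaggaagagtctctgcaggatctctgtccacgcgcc
The Mrpl12 window is chr11:120484487-120484666 on the plus strand, and its NRF1 match reads from the opposite strand. The Mrpl17 window is chr7:105811058-105811237 on the minus strand, with 1 NRF1 match. The Mrpl43 window is chr19:45006413-45006592 on the minus strand, with 2 CCGGAAG matches. The Mrps26 window is chr2:130563607-130563786 on the plus strand, with 2 NRF1 matches that overlap each other at the start site and 1 CCGGAAG match on the opposite strand. The Mrps2 window is chr2:28467916-28468095 on the plus strand.

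Over both strands of the full windows, the NRF1 letters stood in 13 of 68 genes (19.1%) and in 11.7% of the 8791 other genes of the table with a window. CCGGAAG stood in 25 genes (36.8%) against 20.2% of other genes. AAGATGGCG, bound by YY1, stood in 8 genes (11.8%) against 3.75%. The E-box CACGTG stood in 7.35% against 12.3%, CCAAT in 38.2% against 42.5%, TATAAA in 7.35% against 8.83%, and TCAAGGTCA of estrogen-related receptors in 0 genes against 0.307%. These are matches of letters and no test was made of them. Genes with and without the NRF1 letters rose with age in 7 of 13 and 28 of 55 cases, and genes with and without CCGGAAG in 12 of 25 and 23 of 43 cases.

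Levels in young locked mice spanned a 42.1-fold range on the RPKM scale, which divides reads by exon length. The median gene stood at 8.60 RPKM, above the median of all genes at 6.10, and 47 of the 77 genes were above that median. Mrps6, the homologue of a bacterial small subunit protein, had the highest level at 44.0 ± 4.02 RPKM (SD, n = 6). Mrps28 followed at 40.9 ± 3.58 and Mrpl28 at 38.9 ± 3.68. Neighbours in this order differed by less than 1 SD, whereas Mrps6 and Mrpl28 differed by more. The lowest were Mrpl19 at 1.84 ± 0.259, Mrpl47 at 1.59 ± 0.123 and Mrps35 at 1.05 ± 0.165 RPKM. Exon length in GENCODE M21 was 5450, 4419 and 8631 bases for these 3, the last the longest of the 77 genes. It was 1533, 783 and 1380 bases for Mrps6, Mrps28 and Mrpl28. The part of exon length in this order was not tested. Mrps6 shares 305 exonic bases with the gene model Gm49711 on the same strand. On the opposite strand Mrpl19 shares 1962 with Gcfc2 and Mrpl47 shares 616 with Ndufb5. The lowest value of any of these genes in any library was 0.729 RPKM, so none was at 0.

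**Figure D1:**
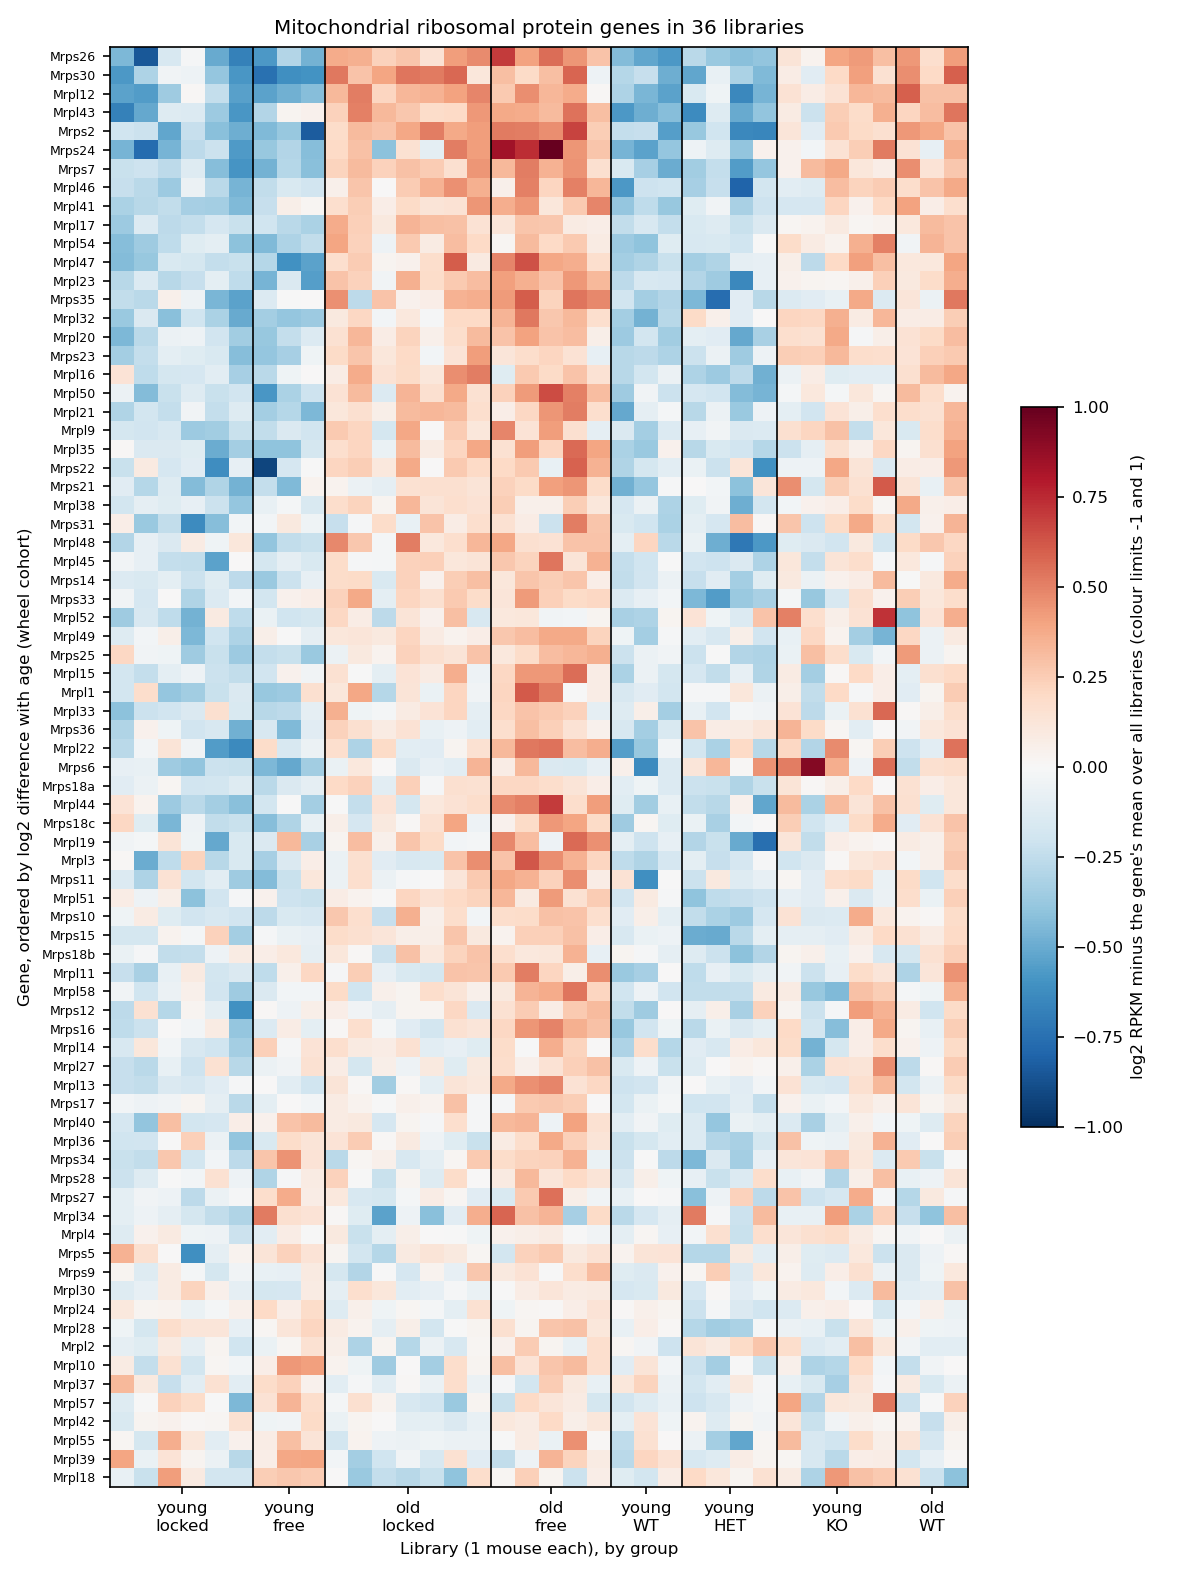
Each row is 1 of the 77 genes, ordered by the log2 difference between old and young locked mice, and each column is 1 library. Colour gives log2 RPKM minus the gene's mean over the 36 libraries, limited to -1 and 1. The upper rows are blue in the young locked, young free, young WT and HET libraries and red in the old and most KO libraries, while the lowest rows show no such order.

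Age was compared first between mice with a locked wheel, the comparison with the most libraries. Of the 77 genes, 39 rose and 0 fell in old locked against young locked mice (limma with Benjamini-Hochberg adjustment over 11337 genes, adjusted p under 0.05), where 20.5% of all genes rose and 17.8% fell. That is 50.6% of these genes. The median log2 difference was 0.23, with 65 genes above 0, against 0.01 for all genes, a median rise in level of 1.17-fold. All old values lay above all young values for 18 genes, where 6.96% of all genes did so. In bulk RNA from sorted cells, fewer cells of a type and less RNA per cell cannot be told apart, here and below.

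Mrpl12, the stalk protein that draws translation factors to the large subunit, lies at chr11:120484613-120489065. It ranged from 19.2 to 28.5 RPKM with a median of 20.8 in young locked libraries and from 32.7 to 40.2 with a median of 35.9 in old locked libraries. Every old library was above every young one, and Mrpl12 rose by 0.74 ± 0.09 (log2, SE; limma adjusted p = 1.67e-06). Mrpl17, the homologue of a bacterial large subunit protein, ranged from 10.9 to 12.7 RPKM with a median of 11.96 in young and from 15.0 to 18.1 with a median of 17.2 in old libraries. These groups did not overlap either, and the difference was 0.49 ± 0.06.

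Among small subunit genes, Mrps26, a protein with no bacterial counterpart, had the largest difference. Its levels ran from 2.80 to 5.00 RPKM with a median of 3.61 in young and from 5.56 to 6.96 with a median of 6.45 in old locked libraries. The lowest old library was thus above the highest young one, and the log2 difference was 0.76 ± 0.11. Mrps2, the homologue of bacterial S2, ranged from 6.55 to 8.20 RPKM with a median of 7.53 in young and from 10.7 to 13.4 with a median of 12.2 in old libraries, a difference of 0.70 ± 0.09. Mrps7, which binds the small subunit rRNA in the head of the particle, rose from a mean of 22.9 ± 2.58 RPKM (SD, n = 6) to 34.1 ± 2.16 (n = 7). For both genes the groups did not overlap.

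Further genes of the large subunit stood among the 8 with the lowest p. Mrpl43 rose by 0.71 ± 0.09 (log2, SE), Mrpl41 by 0.52 ± 0.07 and Mrps30 by 0.74 ± 0.11, each with every old above every young library. All 3 proteins are absent from bacteria. On the opposite strand Mrpl43 shares 507 exonic bases with Twnk, Mrps30 shares 623 with B430218F22Rik and Mrpl12 shares 200 with Gm16755. Mrps7 shares 127 with Gga3 and Mrps26 shares 8 with 4930473A02Rik, also on the opposite strand. With the strand setting of the counting unknown, the values of these genes may hold reads of the neighbour. Of the 45 genes whose exons overlap no other gene, 24 rose, and of the 32 with an overlap 15 rose.

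**Figure D2:**
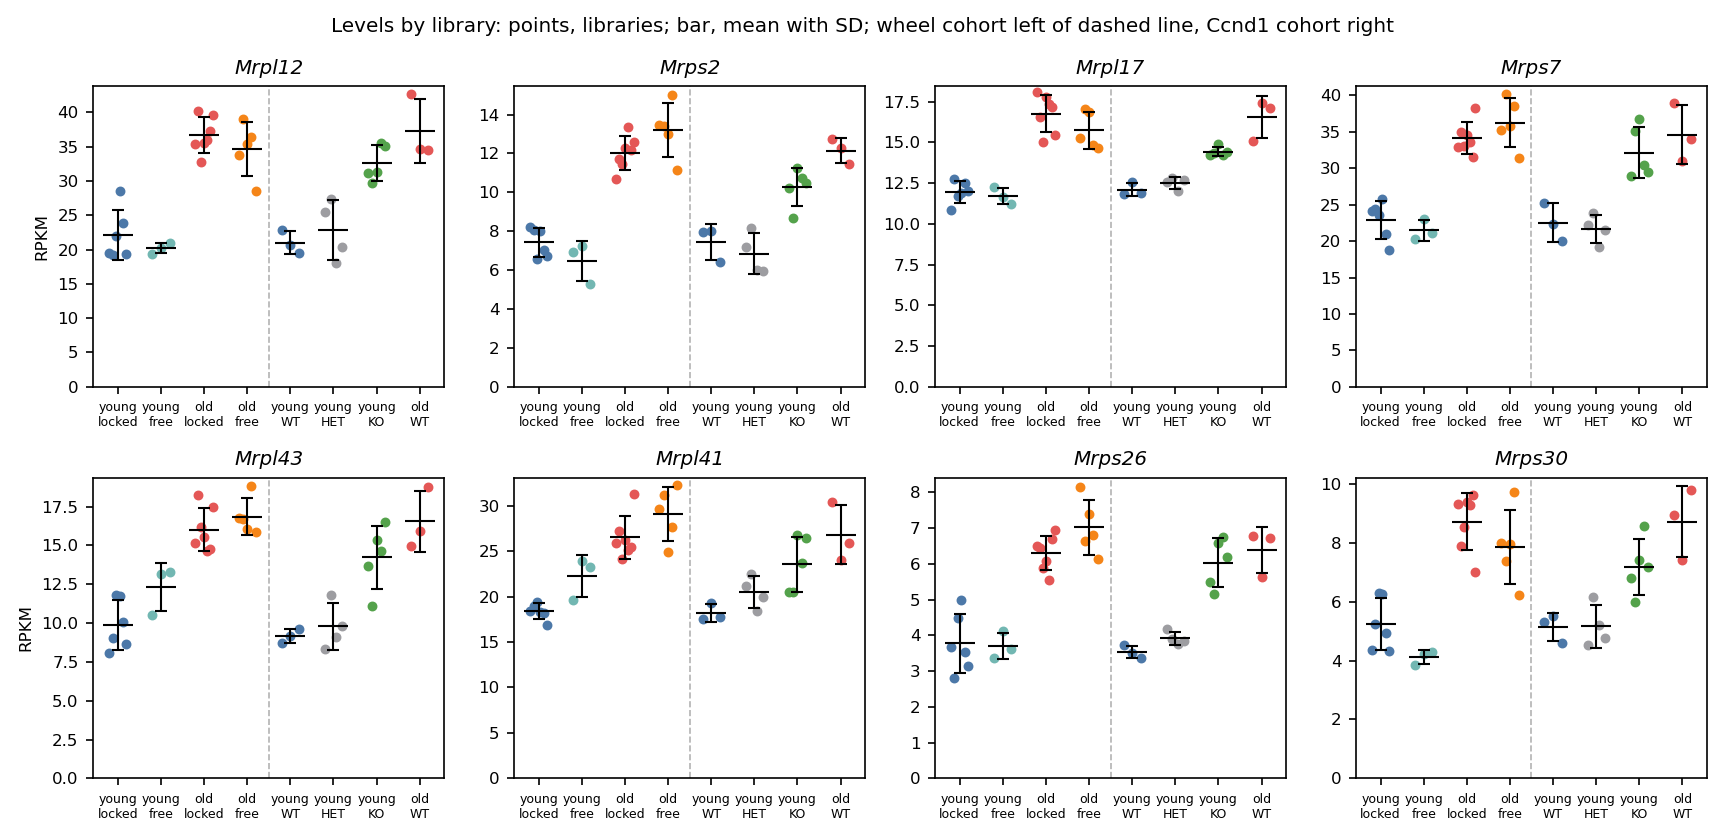
Points are libraries, bars are group means with SD, and the vertical axes give RPKM from 0 for the 8 genes with the lowest p for age. In each panel the old locked and old WT libraries are above the young locked and young WT libraries, and the KO means are between the young and old WT means.

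Both subunits held genes that rose, with 14 of 26 small subunit genes and 24 of 50 large subunit genes higher with age and medians of 0.23 each. Mrps36 was the other gene that rose, by 0.24 ± 0.09. Of the 44 genes with a bacterial homologue 18 rose (median 0.22), and of the 32 genes particular to mitochondria 20 rose (median 0.29). No test was made between these classes. The lowest difference was that of Mrpl18, a protein of the large subunit, at -0.17 ± 0.11 (log2, SE; limma adjusted p = 0.242), and 12 of the 77 genes were below 0. Of the 3 Mrps18 paralogues, which in bacteria correspond to 1 gene, Mrps18a rose by 0.23 ± 0.06. Mrps18b differed by 0.20 ± 0.09 and Mrps18c by 0.22 ± 0.10, and neither passed the test.

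Short genes in general were higher with age in this table, and these genes are short. Their median exon length was 2533 bases against 4329 for the other genes. With all genes split evenly into 4 classes of exon length, the other genes of the shortest class (up to 2629 bases) had a median difference of 0.12 and the 42 mitochondrial ribosomal protein genes one of 0.22. In the longest class the other genes had a median of -0.05 and the 7 mitochondrial ribosomal protein genes one of 0.25. Markers of cell types also moved with age. No value in the deposited table is 0, so a marker above 0 need not have been detected. Krt5 and Krt14, for example, went down to 0.00568 and 0.00545 RPKM in their lowest libraries, where the lowest value of the table was 0.00144. The 7 of 8 fibroadipogenic markers found summed to 176 to 211 RPKM in young locked and 260 to 300 in old locked libraries. Of these 7 markers 3 were called higher and 1 lower. Most of the sum is Dpt and Ly6a, which averaged 132 and 68.1 RPKM over all libraries, whereas Pdgfra averaged 0.682. The 8 of 10 myofibre markers found summed to between 118 and 674 RPKM in young and between 44.1 and 179 in old libraries, with 2 called lower. Of the 10 satellite cell markers 1 was called higher and 5 lower. Of the other lists, 2 of 8 endothelial, 2 of 7 Schwann cell, 2 of 4 keratinocyte and 1 of 8 haematopoietic markers were called higher, and 1 Schwann cell and 1 of 3 erythroid markers lower. The 4 keratin genes, with a median log2 difference of 2.39, summed to between 1.59 and 2.48 RPKM in young locked and between 2.79 and 5.70 in old locked libraries. The part of these cell types in the differences was not tested.

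In the WT mice of the Ccnd1 cohort 18 of the 77 genes were higher and 0 lower with age, where 8.03% of all genes were higher and 7.76% lower, and the median difference was 0.25 against -0.01 for all genes. Old values lay above young values for 31 genes, where 18.9% of all genes did so. Mrps26 measured 3.73, 3.51 and 3.38 RPKM in the young WT and 6.79, 5.65 and 6.72 in the old WT libraries, so that the groups were apart, and it rose by 0.85 ± 0.12 (log2, SE; limma adjusted p = 9.64e-04). Mrpl17 measured 11.9, 12.6 and 11.9 RPKM in young and 15.1, 17.4 and 17.1 in old WT libraries, a rise of 0.45 ± 0.08. The rises of the other named genes were 0.85 for Mrpl43, 0.83 for Mrpl12, 0.76 for Mrps30, 0.71 for Mrps2, 0.50 for Mrps23 and 0.46 for Mrpl16. Given the merged controls of the deposited values, these differences are not independent of those of the wheel cohort. Of the cell type markers, 3 of 10 satellite cell and 1 of 3 erythroid markers were called lower in old WT mice. Called higher were 1 of 7 fibroadipogenic and 1 of 8 endothelial markers. The fibroadipogenic markers summed to between 179 and 207 RPKM in young WT and between 232 and 425 in old WT libraries. Dpt and Ly6a hold most of this sum on average over all libraries. The part of these cell types was not tested.

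**Figure D3:**
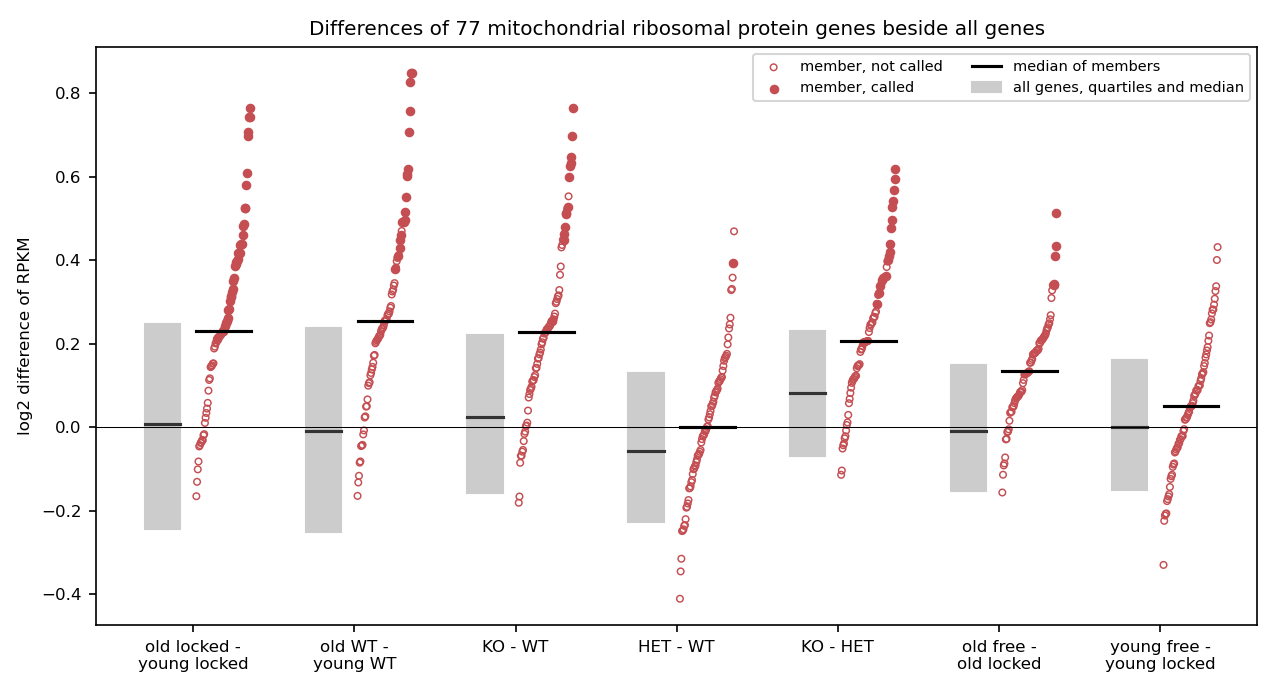
Points are the 77 genes in each comparison, ordered by their log2 difference (vertical axis), filled where adjusted p was under 0.05, with a black line at their median. Grey boxes give the quartiles and median of all 11337 genes. Every filled point is above 0, and the median of the 77 genes is above that of all genes in each of the 7 comparisons.

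Loss of Ccnd1 was compared among young mice of 3 genotypes. Ccnd1 itself measured 11.7 ± 1.40 RPKM in WT (SD, n = 3), 7.18 ± 0.723 in HET (n = 4) and 2.71 ± 0.495 in KO libraries (n = 5). In KO against WT mice 13 of the 77 genes rose and 0 fell, where 5.05% of all genes rose and 1.94% fell. The median log2 difference was 0.23, with 67 genes above 0, against 0.02 for all genes. KO values lay above WT values for 22 genes, where 11.2% of all genes did so.

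Mrps26 measured 3.73, 3.51 and 3.38 RPKM in WT and 5.49, 5.15, 6.59, 6.76 and 6.20 in KO libraries. No KO library reached down to the WT range, and the difference was 0.76 ± 0.10 (log2, SE; limma adjusted p = 0.00485). Mrpl32, a large subunit protein that a mitochondrial protease cuts before it joins the ribosome, measured 6.93, 6.32 and 7.24 RPKM in WT and 10.2, 10.1, 11.2, 9.25 and 11.0 in KO libraries, a rise of 0.60 ± 0.09 with no overlap. Mrps23 measured 12.9, 13.0 and 12.6 RPKM in WT and 18.5, 18.5, 19.5, 17.6 and 17.6 in KO libraries. This small subunit gene, with no bacterial counterpart, rose by 0.51 ± 0.08, and the KO libraries were all higher than the WT libraries.

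Mrpl12 measured 22.8, 20.6 and 19.5 RPKM in WT and 31.1, 29.7, 31.2, 35.6 and 35.1 in KO libraries, without overlap, and rose by 0.63 ± 0.13. Mrps24, the homologue of bacterial S3, rose by 0.65 ± 0.13, Mrpl43 by 0.63 ± 0.13, Mrpl54 by 0.53 ± 0.12 and Mrps7 by 0.51 ± 0.11 (log2, SE), also without overlap. Mrps24 shares 226 exonic bases with Urgcp on the same strand. The rise was found in both subunits, in 6 of 26 small subunit and 7 of 50 large subunit genes. Among short genes the other genes of the table were also higher in KO mice, with a median of 0.13 in the shortest class of exon length against 0.24 for the 42 mitochondrial ribosomal protein genes in it.

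The count of KO against WT mice depended on single libraries. It was 3 without young WT replicate 2, 4 without young WT replicate 3 and 8 without young KO replicate 3. Mrpl12, Mrpl43, Mrps24 and Mrps7 each missed the threshold without either of these WT libraries, with adjusted p-values from 0.0518 to 0.0867 (limma), and Mrpl54 did without young WT replicate 1 or 2. Mrps26, Mrpl32 and Mrps23 passed in all 8 omissions. With each library scaled to the same sum the count was 8, and the calls over all genes turned from 573 higher and 220 lower to 215 and 224. Median-of-ratios scaling gave 426 and 271 over all genes.

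With 1 floxed copy, 1 of the 77 genes was higher and 0 were lower in HET against WT mice, where 1.98% of all genes rose and 3.4% fell. The median difference was 0.00 against -0.06 for all genes, with 39 genes above 0 and 38 below, and median-of-ratios scaling moved the calls over all genes from 225 higher and 386 lower to 274 and 187. The called gene was Mrpl32, at 10.0, 9.06, 8.09 and 8.80 RPKM in HET against 6.93, 6.32 and 7.24 in WT libraries. The groups did not overlap, and the rise was 0.39 ± 0.10 (log2, SE; limma adjusted p = 0.0337). It missed the threshold in 6 of 7 omissions of 1 library, that is without HET replicate 1, 2 or 4 or any WT library, with adjusted p-values from 0.0532 to 0.162. The 4 keratin genes were all called higher in the HET libraries, while 2 of 10 satellite cell and 1 of 7 fibroadipogenic markers were called lower. The part of these cells was not tested.

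In KO against HET mice 17 of the 77 genes were higher and 0 lower, where 5.15% of all genes rose and 0.891% fell. The median difference was 0.21 against 0.08 for all genes, and KO values lay above HET values for 19 genes, where 8.34% of all genes did so. All 4 keratin genes were called lower in KO than in HET libraries, with a median log2 difference of -8.24, and their part was not tested. Median-of-ratios scaling left 4 of the calls and scaling to the same sum 4, with 199 higher and 131 lower calls over all genes under the first in place of 584 and 101. Mrps7 measured 22.2, 23.9, 19.2 and 21.5 RPKM in HET and 29.0, 35.1, 36.7, 30.5 and 29.5 in KO libraries. The groups were apart, at 0.57 ± 0.10 (log2, SE; limma adjusted p = 0.00681). Mrps18a, of the large subunit, measured 11.9, 11.9, 11.2 and 11.8 RPKM in HET and 15.1, 13.9, 14.4, 15.9 and 13.9 in KO libraries, at 0.32 ± 0.06, and missed the threshold under median-of-ratios scaling (adjusted p = 0.0628).

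The differences of the other named genes between KO and HET mice were 0.62 for Mrps26, 0.60 for Mrps2, 0.54 for Mrpl43, 0.53 for Mrpl12, 0.41 for Mrpl20 and 0.40 for Mrps23. Mrpl43, Mrpl12 and Mrpl20 missed the threshold under median-of-ratios scaling, whereas Mrps26, Mrps7, Mrps23 and Mrps2 passed under both scalings and in all 9 omissions of 1 library. The count fell to 5 without HET replicate 3, 8 without HET replicate 4 or KO replicate 5, and 9 without HET replicate 1, KO replicate 3 or KO replicate 4. Both comparisons with KO share the KO libraries and both with WT share the WT libraries.

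**Figure D4:**
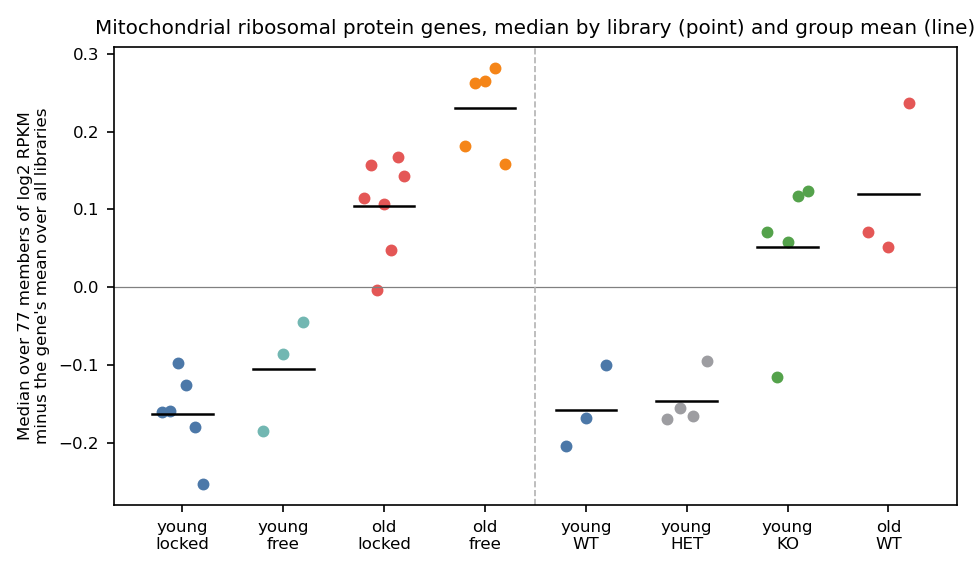
Each point is 1 library and gives the median over the 77 genes of log2 RPKM minus the gene's mean over all libraries, and lines are group means. Old and KO libraries are mostly above 0 and the young locked, young free, WT and HET libraries below 0, with 1 KO library among the latter.

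Per library, the median of the 77 genes relative to their means over all libraries was -0.16 ± 0.05 in young locked (log2, SD, n = 6) and 0.10 ± 0.06 in old locked mice (n = 7), with no overlap. It was -0.16 ± 0.05 in young WT (n = 3), -0.15 ± 0.03 in HET (n = 4), 0.05 ± 0.10 in KO (n = 5) and 0.12 ± 0.10 in old WT mice (n = 3). Within the KO group, replicate 2 stood at -0.11, inside the range of the WT libraries. Without it 17 genes were called against WT, where 13 were called with it. These medians depend on the scaling. Under median-of-ratios scaling they ran from -0.20 to -0.09 in young WT, from -0.13 to -0.04 in HET and from -0.17 to 0.11 in KO libraries.

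A free wheel was compared with a locked one at each age. In old mice 5 of the 77 genes rose and 0 fell, where 4.09% of all genes rose and 3.3% fell, so the share of 6.49% called was near that of the whole table. The median difference was 0.13, with 67 genes above 0, against -0.01 for all genes. Old free values lay above old locked values for 7 genes, where 2.13% of all genes did so. The median per library was 0.23 ± 0.06 in old free mice (log2, SD, n = 5), above the 0.10 of old locked mice. Of the markers of cell types, 1 of 8 endothelial markers was called higher and 1 of 10 satellite cell markers lower, and the endothelial markers summed to between 100.1 and 147 RPKM in old locked and between 107 and 184 in old free libraries. The part of these cells was not tested.

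The 5 genes were Mrps16, Mrpl44, Mrps24, Mrpl13 and Mrpl22. Mrps16, the homologue of bacterial S16, ranged from 17.8 to 22.6 RPKM with a median of 20.3 in old locked libraries and measured 23.3, 27.4, 28.5, 25.9 and 24.7 in old free libraries. The groups did not overlap, and it rose by 0.34 ± 0.09 (log2, SE; limma adjusted p = 0.0201). Mrpl44, which has a fold like that of ribonuclease III and no bacterial ribosomal counterpart, ranged from 4.32 to 5.76 RPKM with a median of 5.50 in old locked libraries and measured 7.10, 7.24, 8.29, 5.77 and 6.81 in old free libraries, a rise of 0.43 ± 0.11. Its lowest free library stood just above its highest locked one. Mrpl22, a homologue of the bacterial protein that lines the exit tunnel, ranged from 5.02 to 7.12 RPKM with a median of 6.35 against 7.77, 8.98, 9.04, 7.70 and 7.98, a rise of 0.41 ± 0.12. Mrpl13 rose by 0.34 ± 0.10 without overlap of the groups and Mrps24 by 0.51 ± 0.14 with overlap. On the opposite strand Mrpl13 shares 330 exonic bases with Mtbp and Mrpl44 shares 126 with Wdfy1, beside the overlap of Mrps24 with Urgcp. The values of these genes may hold reads of the neighbour.

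These 5 calls were close to the threshold, with adjusted p-values of 0.0201 to 0.0470 (limma). The count was 0 without old free replicate 2 or 3, 1 without old locked replicate 4, 2 without old free replicate 1 or old locked replicate 5, and 3 without old free replicate 5 or old locked replicate 2 or 3. Scaling each library to the same sum raised the count to 14, with 794 higher and 222 lower calls over all genes in place of 464 and 374. Mrpl12, Mrps2, Mrps26 and the other genes with the lowest p for age were not among the 5, and Mrpl12 stood at -0.09 ± 0.09 (log2, SE).

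In young mice 0 of the 77 genes passed (limma), where 1.12% of all genes did, and at an unadjusted p under 0.05 there were 8 higher and 1 lower, where 15.8% of all genes passed. The median difference was 0.05, with 47 genes above 0. The lowest p was that of Mrpl41, at 16.9 to 19.5 RPKM with a median of 18.4 in young locked and 19.6, 23.9 and 23.3 in young free libraries. The groups did not overlap, and the difference of 0.27 ± 0.09 did not pass (adjusted p = 0.129). The difference between the wheel differences in old and young mice passed for 0 of the 77 genes, where 0.00882% of all genes passed, and 6 had an unadjusted p under 0.05, where 8.47% of all genes had. The lowest p was that of Mrpl50, at 0.39 ± 0.15 (log2, SE; limma adjusted p = 0.504). It is thus not shown that the wheel acted differently on these genes at the 2 ages.

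Side by side, Mrps26 differed by 0.76 with age in the wheel cohort, 0.85 with age in WT mice and 0.76 in KO against WT mice. Mrpl12 differed by 0.74, 0.83 and 0.63, Mrpl43 by 0.71, 0.85 and 0.63, and Mrps2 by 0.70, 0.71 and 0.46 (all log2). All 4 of these genes passed in each comparison. The comparisons share their young WT controls, or controls that the deposited values merge with them, so the likeness of these values is not a result. Ccnd1 was lower in old than in young locked mice, at 7.72 ± 1.32 RPKM (SD, n = 7) against 11.3 ± 1.85 (n = 6). Its mean was higher with a free wheel at both ages, at 18.3 ± 3.69 (n = 5) in old free and 17.1 ± 2.25 (n = 3) in young free mice.

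Other genes of mitochondrial translation were taken by lists. Of the 5 mitochondrial ribosome genes found that bear other symbols, 4 rose with age, among them Gadd45gip1 by 0.71 ± 0.11 and Chchd1 by 0.41 ± 0.07 (log2, SE), and 2 rose in KO mice, Aurkaip1 by 0.50 and Gadd45gip1 by 0.49. Of the 26 assembly genes 6 rose with age and 0 fell, so the share that rose was near the 20.5% of all genes. Noa1, a GTPase of small subunit assembly, rose by 0.90 ± 0.18 with age and 0.70 ± 0.14 in KO mice, and Mrm3, a methyltransferase of the large rRNA, by 0.56 ± 0.11 and 0.58 ± 0.16. In KO mice 5 of the 26 rose, where 5.05% of all genes did.

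Of the 15 translation factors 3 rose and 2 fell with age, shares near the 20.5% and 17.8% of all genes. Tufm, the elongation factor that brings aminoacyl-tRNA to the ribosome, rose by 0.41 ± 0.09 and Gatc, of the amidotransferase for glutamine tRNA, by 0.46 ± 0.08. Mtif2, the initiation factor, fell by 0.53 on the log2 scale and Mtfmt, which formylates the initiator tRNA, by 0.39. Of the 15 mitochondrial aminoacyl-tRNA synthetases 2 rose and 3 fell, also not far from those shares, with Mars2 at 0.73 ± 0.11 and Vars2 at -0.77 ± 0.21. The medians of these 2 lists were -0.08 and -0.05. In KO mice none of the 15 factors and 1 of the 15 synthetases, Mars2, passed.

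Of 21 genes of mitochondrial DNA replication and transcription 6 rose and 2 fell with age, beside the same 20.5% and 17.8%. Trmt10c, of the enzyme that frees mitochondrial tRNAs, rose by 0.58 ± 0.11, and Hsd17b10, its partner, fell by 0.32 on the log2 scale. Of the 11 mRNAs found that mitochondrial DNA encodes, which these ribosomes translate, 1 passed, ND3, at 9.79 RPKM in old against 3.57 in young locked mice. ND3 is among the low rows of this list. In old locked mice the 11 mRNAs ran from 1.96 RPKM for COX2 to 5723 for CYTB, and the cause of this spread was not tested. Their median difference was 0.05 with age, 0.28 in KO and 0.30 in HET against WT mice, 0.02 in KO against HET mice and -0.13 with a free wheel in old mice, where 0 of the 11 were above 0. In these last 4 comparisons 0 of the 11 passed (limma). Of the 11 regulators of mitochondrial biogenesis found, Pprc1, a coactivator related to PGC-1 alpha, rose by 0.32 ± 0.09 with age, while Max fell by 0.58 and Ppargc1b by 0.51 on the log2 scale. Nrf1 differed by 0.17 ± 0.07 and Gabpa by -0.14 ± 0.07, and neither passed (limma adjusted p = 0.0557 and 0.124).

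Lists outside mitochondrial translation were read beside the same shares of all genes, 20.5% higher with age and 5.05% higher in KO mice. Of 27 import and chaperone genes 16 rose with age and 0 fell, with a median of 0.41, and 11 rose in KO mice. Timm9 and Timm10, which form the chaperone of the intermembrane space, rose by 0.85 ± 0.08 and 0.88 ± 0.10 with age and by 0.69 ± 0.12 and 0.84 ± 0.18 in KO mice. The list of nuclear respiratory chain genes held 82 rows, with Ndufa13 in more than 1 of them. Of these rows 38 rose and 5 fell with age (median 0.17), with Cox7c at 0.48 ± 0.06, and 13 rose in KO mice. Of 76 cytosolic ribosomal protein genes 44 rose with age (median 0.21), and 3 rose in KO mice, a share below that of all genes. Their median was 0.37 in KO and 0.26 in HET against WT mice, with 72 of 76 above 0 in the latter, where the 77 mitochondrial ribosomal protein genes had a median of 0.00. With a free wheel in old mice Rbfa, which matures the small subunit, rose by 0.59 ± 0.13. In the same comparison Dhx30 fell by 0.25 and Pprc1 fell by 0.32 on the log2 scale. There 6 of the 82 respiratory chain rows rose, where 4.09% of all genes did.

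**Figure D5:**
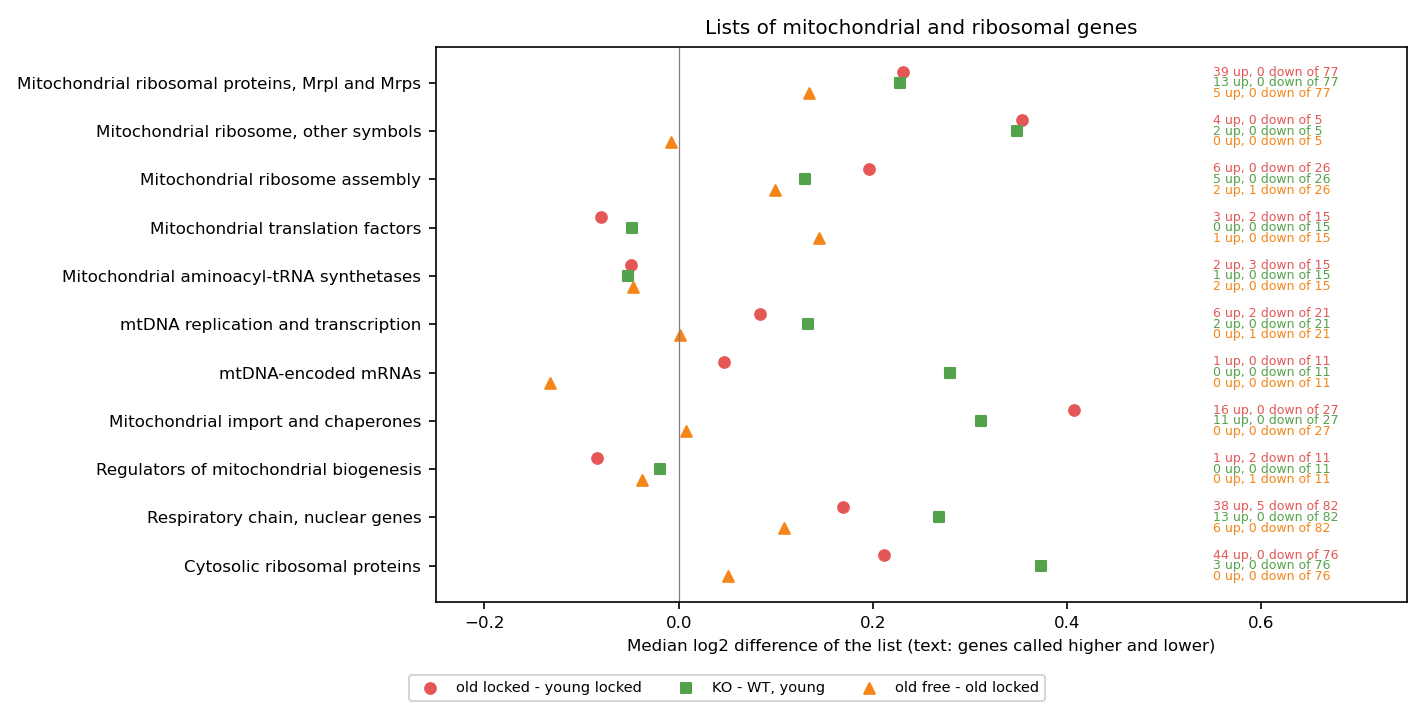
The horizontal axis gives the median log2 difference of each list in 3 comparisons, and the text at the right gives how many genes of how many were called higher and lower. Import and chaperone genes had a median of 0.41 with age, and translation factors and aminoacyl-tRNA synthetases had medians below 0 with age in the wheel cohort and in KO against WT mice.

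The authors' deposited table also gives each gene's correlation coefficient with Ccnd1. The column name does not say which libraries entered it or which kind of coefficient it is. For the 77 genes it ranged from -0.644 for Mrps6 to 0.742 for Mrpl10, with a median of 0.143, and 22 genes (28.6%) were below 0. The median over all genes was 0.00812, with 49.3% below 0.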

How the data were processed

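RNA of sorted muscle stem cells from 36 mice was measured in 8 groups of 3 to 7 libraries, each library 1 mouse per the labels. Per the labels' protocols, 10 ng of RNA was primed with oligo(dT) (SMARTer Ultra Low), sheared, amplified over 13 to 15 cycles (Ovation Ultralow) and sequenced as 101 bp pairs. The submitters' processing notes name Trim Galore, STAR, featureCounts, Subread and the build mm10, without versions, strand setting or annotation. The authors deposited RPKM values of 11337 genes with no value at 0, and a score, the correlation coefficient of the gene with Ccnd1.

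The centred log2 values had rank 29 where 35 is the largest possible, and the rank of residuals from 6 merged groups was 24 in place of 30. The method of this adjustment is not given in the sources. Steps of whole reads could not be recovered from adjusted values, so no count test was run and counting error is unknown.

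Here log2 RPKM without a pseudocount was fitted within each cohort (21 and 15 libraries) with limma 3.58.1 in R 4.3.3, with trend and robust settings (statmod 1.5.0). Tests were two-sided, p-values were adjusted over all 11337 genes by Benjamini-Hochberg, and a gene was called at an adjusted p under 0.05. The method was tested on simulated data. These were independent normal values without the removed directions, so that test could not show the effect of those directions on the p-values. Exon lengths, positions and overlaps came from GENCODE M21, in which all 77 genes were found by identifier, and promoter windows from RefSeq. Figures used Python 3.11.15 with matplotlib 3.10.9. Named in each comparison are up to 8 called genes in each direction by lowest p, or the gene with the lowest p where none was called, together with the 3 highest and 3 lowest levels and the Mrps18 paralogues. Of a list, at most 2 called genes per direction are named, by lowest p. Genes named beside these for overlap, level side by side or correlation were chosen after their values were seen. The 77 genes and all lists were chosen with earlier results of these data known.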

Additional observations from a re-analysis of the deposited data

Results flagged for a closer look

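In groups of 4 to 10 libraries, the named genes and the median of the 77 genes were searched for a highest or lowest library that stands apart by Dixon's 95% criterion. Of 145 groups 5 had such a library, and chance flags about 1 in 20. Mrpl47 stood at 2.90 RPKM in old locked replicate 6, where the next library had 2.28. Mrps18a stood at 11.2 RPKM in HET replicate 3, where the next had 11.8. Mrpl17 stood at 14.9 RPKM in KO replicate 3, where the next had 14.4. Mrps35 stood at 1.60 RPKM in KO replicate 4, where the next had 1.17. The median of the 77 genes stood at -0.11 (log2, relative to the mean over all libraries) in KO replicate 2, where the next KO library had 0.06.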

How the results depend on the processing

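The number of the 77 genes called with age stayed within 1.5 times under all alternatives run, from 30 to 40 in the wheel cohort and from 12 to 22 in WT mice, with every call higher. For the free wheel in old mice the count of 5 became 14 with each library scaled to the same sum and 3 with only the 2 groups compared. For KO against WT mice the count of 13 became 8 with the same sum and 8 with only the 2 groups. For HET against WT mice the count of 1 became 0 with only the 2 groups. For KO against HET mice the count of 17 became 4 with median-of-ratios scaling, 4 with the same sum and 6 with only the 2 groups. With 1 library left out at a time the counts ranged from 34 to 39 for age in the wheel cohort, 12 to 19 for age in WT mice, 0 to 5 for the old wheel, 3 to 17 for KO against WT, 0 to 1 for HET against WT and 5 to 17 for KO against HET, and stayed at 0 for the young wheel and for the wheel by age. Every call was higher except 1 of HET against WT mice without HET replicate 1. The fits of only the 2 groups and those with 1 library left out hold fewer libraries, and the cause of these changes was not tested.

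Replicate numbers did not pair the libraries, since each is a separate mouse and same-numbered libraries had correlations from -0.259 to 0.302. With a replicate block the counts were 33 for age in the wheel cohort, 17 for age in WT mice, 3 for the old wheel, 0 for KO against WT, 0 for HET against WT and 5 for KO against HET. Both wheel counts at 0 stayed at 0.

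A pseudocount of 1, a mean of at least 5 RPKM (58 of the 77 genes), plain limma settings and 1 fit of all 36 libraries kept each count within 1.5 times. No named gene changed direction. Library depth is unknown, groups of 3 limit the precision, and limma's p-values do not account for the 6 removed directions.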
